A study of Mus musculus with 8 samples.

Results

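The genes described here are 35 genes of mitophagy, autophagy and the lysosome, a list drawn up by name and split by role into mitophagy and cargo receptors (7 genes), autophagosome formation (18 genes) and the lysosome (10 genes). They were followed in RNA from whole hearts of 4 mice carrying an inducible shRNA against Taz and 4 wild-type littermates, measured on 1-colour Illumina bead arrays with 1 array per mouse. Taz encodes tafazzin, the acyltransferase that remodels cardiolipin in the inner mitochondrial membrane, and its loss in people causes Barth syndrome. Every mouse was 2 months old, was on the C57BL/6J background and ate a diet with doxycycline at 625 mg/kg, so the control mice had the drug that switches on the shRNA as well. The knockdown mice are named as transgenic shRNA Taz KD, and the labels used here give neither the sex of the mice nor the promoter of the transgene nor the cells in which it acts. Of the 35 genes, 33 had at least 1 of 56 probes on the array. A probe was kept where its detection p was under 0.05 on at least 4 of the 8 arrays, which left 24 of the 35 genes, read by 36 probes, among 9397 probes of the whole array, with which 6889 genes were read.

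In macroautophagy a double membrane closes around cytoplasm to form an autophagosome, which fuses with the acid, enzyme-filled lysosome, where its content is broken down. In mitophagy the content is a mitochondrion: the kinase PINK1 builds up on damaged mitochondria and activates the ubiquitin ligase parkin, or proteins of the outer membrane such as BNIP3, NIX and FUNDC1 bind LC3 directly. Heart muscle cells rarely divide and are packed with mitochondria, and loss of lysosomal proteins such as LAMP2 or acid alpha-glucosidase is known to cause heart muscle disease.

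Taz itself was measured first. The brighter Taz probe read 9.03, 9.27, 9.25 and 9.04 in wild-type hearts 1 to 4 and 6.15, 6.37, 6.12 and 6.45 in knockdown hearts 1 to 4, as log2 normalised intensity, the scale of all levels given here. By this probe the transcript fell by 2.88 ± 0.117 (SE, n = 4 per group), a 7.34-fold lower intensity (limma, Benjamini-Hochberg adjusted p = 1.11e-07). The second Taz probe fell by 1.56 ± 0.176, a 2.95-fold lower intensity (limma adjusted p = 3.3e-04). It was detected on 4 wild-type arrays and 1 knockdown array. The libraries matched their labels. Cardiomyocyte markers showed 8 of 10 genes detected, Tnnt2 and Ryr2 being the exceptions, with a summed normalised intensity of 114112 to 130141 in wild-type and 115885 to 119950 in knockdown hearts. None of the 8 passed, 7 had negative differences (median -0.15), and Mb (-0.37) and Ttn (-0.25) had groups that did not overlap. The 6 detected atrial markers of 7 (Bmp10 was not) all had negative differences, with a median of -0.66. Their summed intensity was 34684 to 63042 in wild-type and 29841 to 41324 in knockdown hearts. Of these 6 markers 1 passed, where 3.43% of all genes fell. Groups did not overlap for 3 of them, where 8.36% of all genes were lower without overlap. Of 5 detected smooth muscle and pericyte genes of 6 (Cnn1 was not), Acta2 rose by 0.85 (limma adjusted p = 0.0125). The other 4 of these did not pass, with Tagln at -0.42, Myh11 at -0.33, Rgs5 at -0.02 and Pdgfrb at 0.26, and the median was -0.02. The part of any of these cell types in the results was not tested. Array brightness, the 95th percentile of the deposited intensity, ran from 502 to 742, wild-type heart 3 and knockdown heart 4 being the dimmest of their groups. The slides and scans of the arrays were not given in the sources used here, so a slide effect and the genotype cannot be told apart. In RNA from whole tissue, fewer cells of a type and less RNA per cell cannot be told apart either.

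Of the 24 genes measured, 1 fell and 0 rose in the knockdown hearts, and the other 23 did not pass. Pink1 was the gene that fell, by 0.39. Genes were read by their brightest tested probe, with limma and Benjamini-Hochberg adjustment over all 9397 probes. Among all 6889 genes tested in the same way, 3.43% fell and 3.22% rose (6.65% changed), so 1 of 24 is near the background. Of the 9397 probes 3.42% rose and 3.16% fell. At an unadjusted p under 0.05 the list held 3 genes with a higher level (Sqstm1, Gabarap and Mcoln1; 9.75% of all genes) and 2 with a lower level (Pink1 and Fundc1; 11.5% of all genes), and these 5 of 24 genes stand beside 21.3% of all genes. The same 5 genes, 3 higher and 2 lower, had groups that did not overlap. Of all genes 6.91% were higher and 8.36% lower without overlap, 15.3% in either direction. Mcoln1 passed the detection filter through the knockdown arrays alone, so its place in these counts follows in part from the filter.

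The differences of the 24 genes ran from -0.39 to 0.52 on the log2 scale, with 14 above and 10 below 0. Their median was 0.06, beside -0.01 for all genes tested, and it was -0.0075 when the dimmest array of each group was left out. In size the differences had a median of 0.145, beside 0.149 for all genes. The medians by role were -0.27 for 5 mitophagy and cargo receptors, 0.06 for 12 autophagosome genes and 0.09 for 7 lysosome genes, and the last was -0.09 with no filter on dim probes and -0.02 without knockdown heart 1. The receptor median was -0.13 with no filter, -0.12 without the dimmest arrays and -0.42 with wild-type hearts 3 and 4 only. The plot of every tested probe with its interval shows that most intervals included 0.

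**Figure D1:**
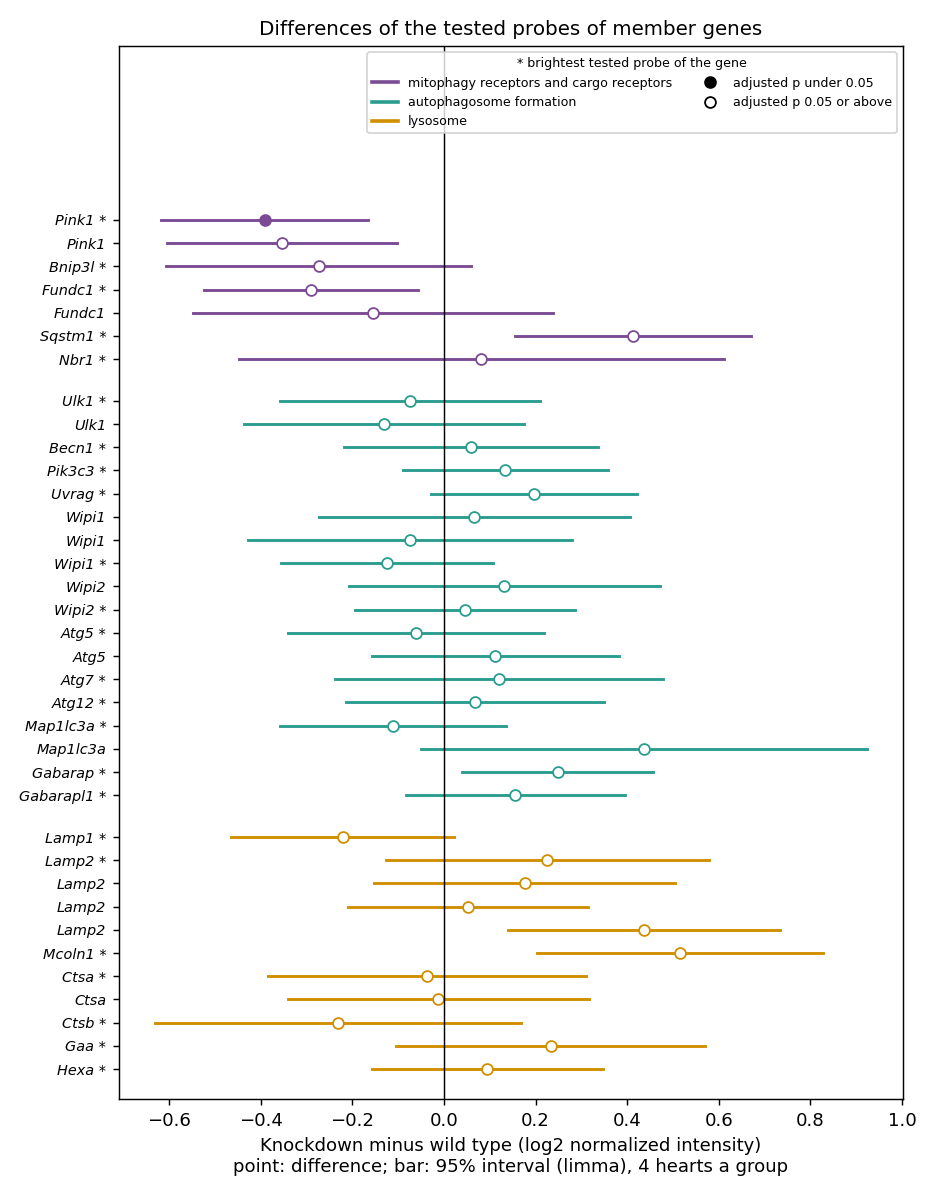
Difference between knockdown and wild-type hearts for each of the 36 tested probes of the listed genes, in log2 normalised intensity, with the 95% interval from limma (4 hearts per group). The filled point is the brighter Pink1 probe, the probe that passed the adjusted p of 0.05, and an asterisk marks the probe used to count each gene.

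Promoters of these genes are shown because many lysosome genes are known targets of the transcription factors TFEB, TFE3 and MITF, which bind the E-box CACGTG. RefSeq promoter windows on GRCm38.p6, from 250 bases before to 50 bases after the annotated start, were held for 28 of the 35 genes. The 4 windows below belong to the gene that fell (Pink1), to the cargo receptor and the lysosomal channel with the largest positive differences (Sqstm1 and Mcoln1), and to Lamp1, the gene with the most matches to this E-box. They lie at chr4:138326247-138326546 on the minus strand (Pink1), chr11:50210771-50211070 on the minus strand (Sqstm1), chr8:3500269-3500568 on the plus strand (Mcoln1) and chr8:13158911-13159210 on the plus strand (Lamp1). Each is written 5′ to 3′ along its gene, with CACGTG in capitals.
Pink1: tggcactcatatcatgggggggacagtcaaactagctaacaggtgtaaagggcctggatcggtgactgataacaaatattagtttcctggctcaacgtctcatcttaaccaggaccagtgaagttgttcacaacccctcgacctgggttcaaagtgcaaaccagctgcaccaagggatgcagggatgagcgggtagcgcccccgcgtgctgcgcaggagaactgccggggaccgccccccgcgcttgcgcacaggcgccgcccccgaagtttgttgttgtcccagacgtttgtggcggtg
Sqstm1: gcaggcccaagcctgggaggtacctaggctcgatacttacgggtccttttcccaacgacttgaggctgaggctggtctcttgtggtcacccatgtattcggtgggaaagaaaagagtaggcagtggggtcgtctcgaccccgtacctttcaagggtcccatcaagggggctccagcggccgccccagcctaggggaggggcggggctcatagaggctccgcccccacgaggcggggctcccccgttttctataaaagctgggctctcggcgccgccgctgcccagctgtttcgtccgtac
Mcoln1: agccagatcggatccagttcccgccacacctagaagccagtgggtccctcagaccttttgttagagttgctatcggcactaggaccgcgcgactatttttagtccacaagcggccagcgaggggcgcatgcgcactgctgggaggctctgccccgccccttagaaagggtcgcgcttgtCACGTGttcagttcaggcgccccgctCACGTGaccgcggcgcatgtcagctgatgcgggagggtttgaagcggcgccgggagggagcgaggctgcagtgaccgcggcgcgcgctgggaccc
Lamp1: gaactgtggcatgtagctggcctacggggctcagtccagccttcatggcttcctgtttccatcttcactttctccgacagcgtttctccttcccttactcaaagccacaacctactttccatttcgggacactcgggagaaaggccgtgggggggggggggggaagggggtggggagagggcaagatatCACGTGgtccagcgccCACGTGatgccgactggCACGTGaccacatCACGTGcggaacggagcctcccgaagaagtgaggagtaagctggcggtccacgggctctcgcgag

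The Lamp1 window holds CACGTG 4 times, the first base of each at -61, -45, -28 and -15 from the start, and the Mcoln1 window holds it 2 times, at -71 and -45. The Pink1 and Sqstm1 windows hold no CACGTG, which says only that these letters are not in this window. CACGTG reads the same on both strands. It was found in the windows of 10 of 28 genes (Bnip3, Atg3, Atg5, Atg7, Lamp1, Mcoln1, Ctsa, Ctsd, Ctsl and Gaa), of which 6 were among the 9 lysosome genes with a window. In lysosome genes outside the list the share was lower. CACGTG was in 20.6% of 34 lysosomal hydrolases, 16.7% of 18 lysosomal membrane proteins and 33.3% of 12 V-ATPase subunits with a window. Counted by window, it was in 10 of the 32 windows of the 28 genes (31.2%) and in 7.15% of the 32851 windows of the RefSeq table. The longer TCACGTG, which contains it, was searched on both strands and found in 7 of the 28 genes. It was in 21.9% of their 32 windows and in 3.77% of all windows. TGATGNAA, a form of the element bound by ATF4 with C/EBP partners, was found on either strand in Ctsl (3.12% of the 32 windows) and in 3.97% of all windows. TGACNNNGC, the core of the antioxidant response element, was found on either strand in Ulk2, Map1lc3b, Ctsd and Hexa (12.5% of the 32 windows) and in 12.4% of all windows. Among the 5626 tested genes with a window the shares were 12% for CACGTG, 7.22% for TCACGTG, 2.93% for TGATGNAA and 16.5% for TGACNNNGC. A match is a description of the letters and not a binding site.

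Genes with and without the E-box both had differences of either sign. The 6 tested genes with CACGTG had a median difference of 0.04, between -0.22 for Lamp1 and 0.52 for Mcoln1, and the 12 tested genes with a window without it had 0.09. Over all 5626 tested genes with a window, 674 held CACGTG, with a median difference of 0.03, against -0.02 for the rest. These medians are descriptions without a test.

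Pink1, the kinase that starts ubiquitin-dependent mitophagy, was lower in every knockdown heart than in every wild-type heart. Its brighter probe read 10.25, 10.34, 10.42 and 10.30 in wild-type hearts 1 to 4 and 9.92, 10.11, 9.90 and 9.82 in knockdown hearts 1 to 4. Knockdown heart 2 came nearest to the wild-type hearts, and the groups did not overlap. The level fell by 0.39 ± 0.103 (SE, 95% interval -0.62 to -0.17), a 1.31-fold lower intensity (interval 1.12 to 1.53; limma adjusted p = 0.0461). The second Pink1 probe gave 8.94, 9.0, 9.15 and 8.88 in the wild-type hearts and 8.55, 8.86, 8.51 and 8.63 in the knockdown hearts. It again put knockdown heart 2 highest in its group and left a gap between the groups, with a difference of -0.35 ± 0.114 that did not pass (limma adjusted p = 0.0986). An exact two-sided permutation test over the 70 ways to split 8 hearts gave p = 0.0286 for either probe, the smallest value it can give with 4 hearts against 4.

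The call of Pink1 lay close to the threshold. Its limma adjusted p was 0.0452 without knockdown heart 2, and 0.0569, 0.0891, 0.111 and 0.0895 without wild-type heart 1, 2, 3 or 4. It was 0.0913, 0.112 and 0.111 without knockdown heart 1, 3 or 4. The difference itself stayed between -0.45 and -0.32 in every alternative run. Parkin, the ubiquitin ligase that PINK1 activates, had no probe among those analysed here (listed as Park2).

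The receptors of the outer mitochondrial membrane gave negative differences that did not pass. FUNDC1 is a receptor that binds LC3 when oxygen is low. Its brighter probe read 8.85, 8.90, 9.12 and 9.16 in wild-type hearts 1 to 4, against 8.73, 8.72, 8.67 and 8.73 in knockdown hearts 1 to 4. The knockdown hearts lay within a narrow band below every wild-type heart, and the difference was -0.29 ± 0.106 (interval -0.52 to -0.06; limma adjusted p = 0.144; exact permutation p = 0.0286). The second tested Fundc1 probe gave -0.15 with overlapping groups (limma adjusted p = 0.692), and the remaining probe was detected on 0 of 8 arrays. Bnip3l, which encodes the receptor NIX known from the clearance of mitochondria in red cell precursors, read 7.31, 7.14, 7.66 and 7.52 in wild-type and 7.42, 6.94, 7.25 and 6.92 in knockdown hearts. The groups overlapped, and the difference was -0.27 ± 0.151 (limma adjusted p = 0.346). The heart values of Bnip3l, like those of Ctsb, are given after they were seen. The probe of the related receptor Bnip3 was detected on 0 of 8 arrays. Erythroid genes, which the RNA of blood in a heart would carry, had a median difference of 0.59 over 3 detected of 4 (Hbb-bt was not), with a summed normalised intensity of 39293 to 50226 in wild-type and 39278 to 50475 in knockdown hearts. Their part in the Bnip3l value was not tested.

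The cargo receptors gave positive differences. SQSTM1, also called p62, binds ubiquitin-tagged cargo and LC3 and is itself broken down by autophagy, and its gene is a known target of NRF2. Sqstm1 read 10.35, 10.56, 10.24 and 10.29 in wild-type hearts 1 to 4 and 10.70, 10.96, 10.83 and 10.60 in knockdown hearts 1 to 4. The highest wild-type heart (heart 2) lay just under the lowest knockdown heart (heart 4). The difference was 0.41 ± 0.117 (SE, interval 0.15 to 0.67), a ratio of 1.33 (interval 1.11 to 1.59), and it did not pass (limma adjusted p = 0.0632; exact permutation p = 0.0286). Without wild-type heart 2 it passed (0.48, limma adjusted p = 0.0497), and it passed in no other fit that left out 1 heart. Nbr1, a second receptor of ubiquitin-tagged cargo, was detected on 7 of 8 arrays and ran from 5.03 to 6.29 in the wild-type hearts, a spread that held every knockdown heart (difference 0.08 ± 0.241, limma adjusted p = 0.889). Pink1 and Sqstm1 thus had the most negative and the most positive difference among the 5 receptor genes.

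**Figure D2:**
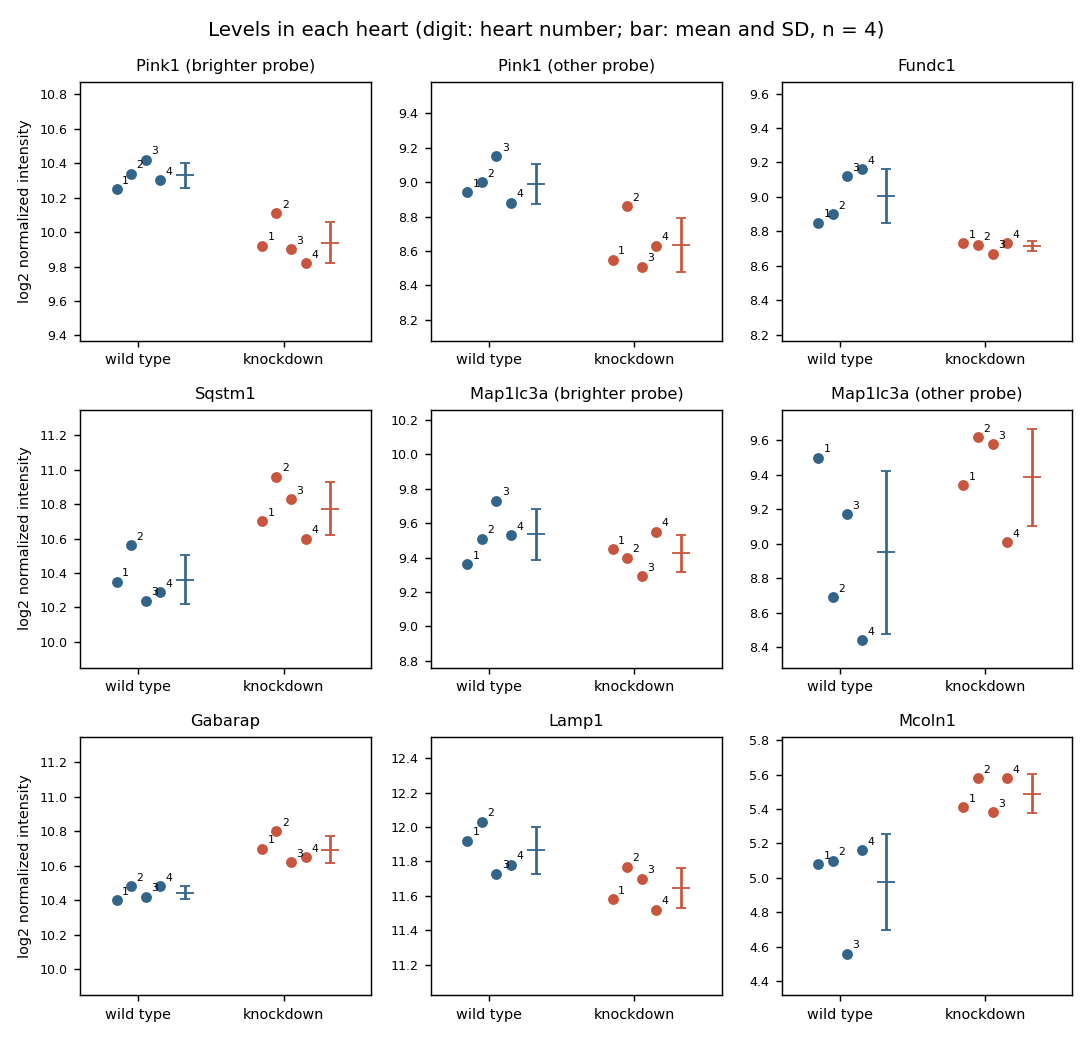
Level in each heart, as log2 normalised intensity, for Pink1 (both probes), Fundc1, Sqstm1, Map1lc3a (both probes), Gabarap, Lamp1 and Mcoln1, with heart numbers beside the points and mean ± SD bars (n = 4 per group). Groups are apart for both Pink1 probes, Fundc1, Sqstm1, Gabarap and Mcoln1 and overlap for Lamp1 and both Map1lc3a probes, and each panel spans the same number of log2 units on its own axis.

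None of the 12 tested autophagosome genes passed, and their differences ran from -0.12 to 0.25, with 8 above and 4 below 0. At an unadjusted limma p under 0.05 they held 1 gene (Gabarap), beside 21.3% of all genes. Ulk1, the kinase that starts autophagosome formation, differed by -0.07 (limma adjusted p = 0.805) and its second probe by -0.13. In the lipid kinase complex that marks the site of the new membrane, Becn1 differed by 0.06, the catalytic subunit Pik3c3 by 0.13 and Uvrag by 0.20 (limma adjusted p = 0.843, 0.512 and 0.312). The PI3P-binding proteins Wipi1 and Wipi2 differed by -0.12 and 0.05, and the 3 tested Wipi1 probes spanned -0.12 to 0.07. In the conjugation machinery that attaches LC3 to the membrane, Atg5, Atg7 and Atg12 differed by -0.06, 0.12 and 0.07, each with an interval that included 0. The interval of Ulk1 ran from -0.36 to 0.21 and that of Atg7 from -0.24 to 0.48, so differences within those bounds were not excluded.

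The proteins that conjugation places on the membrane belong to the LC3 and GABARAP families. GABARAP acts late in autophagosome closure and fusion, and its gene was higher in every knockdown heart. Gabarap read 10.40, 10.48, 10.42 and 10.48 in wild-type hearts 1 to 4 and 10.70, 10.80, 10.62 and 10.65 in knockdown hearts 1 to 4. The groups did not overlap, and the difference of 0.25 ± 0.0946 (interval 0.04 to 0.46) did not pass (limma adjusted p = 0.160; exact permutation p = 0.0286). Its relative Gabarapl1 ran from 9.42 to 9.73 in wild-type and from 9.60 to 9.85 in knockdown hearts, with a difference of 0.16 (limma adjusted p = 0.465).

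Map1lc3a, which encodes an LC3 protein, was the gene whose probes differed from each other by over 0.5. Its brighter probe read 9.36, 9.51, 9.73 and 9.53 in wild-type and 9.45, 9.40, 9.29 and 9.55 in knockdown hearts, a difference of -0.11 ± 0.112 with overlapping groups (interval -0.36 to 0.13; limma adjusted p = 0.638; exact permutation p = 0.286). The other probe read 9.50, 8.69, 9.17 and 8.44 in wild-type and 9.34, 9.62, 9.58 and 9.01 in knockdown hearts, a difference of 0.44 ± 0.222 (interval -0.05 to 0.92; limma adjusted p = 0.298; exact permutation p = 0.200). In the second probe the wild-type hearts spread over more than the difference itself, with heart 1 above 2 of the knockdown hearts. The platform annotation assigns both probes to the same RefSeq transcript, so no direction can be given for Map1lc3a from these arrays.

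None of the 7 tested lysosome genes passed, and their differences had both signs. At an unadjusted limma p under 0.05 they held 1 gene (Mcoln1), beside 21.3% of all genes. MCOLN1 is the calcium channel of the lysosomal membrane through which calcium leaves the lysosome. The Mcoln1 probe read 5.08, 5.10, 4.56 and 5.16 in wild-type hearts 1 to 4, not well above background in any of them, and 5.41, 5.58, 5.38 and 5.58 in knockdown hearts 1 to 4, detected in every one. Wild-type heart 3, one of the dimmest arrays, lay well under the other wild-type hearts, and the groups did not overlap. Against the lowest detected signal of each wild-type array the knockdown level was at least 1.25-fold higher, and the difference as measured was 0.52 ± 0.142 (interval 0.20 to 0.83; limma adjusted p = 0.0554; exact permutation p = 0.0286). That difference did not pass, and it passed with the deposited normalised intensities (0.62, limma adjusted p = 0.0181). The probe was tested only because the knockdown arrays detected it, so the filter favoured this direction. These p-values and the gap between the groups follow in part from that filter. With the wild-type values set to the detection limit of each array, the difference was 0.32.

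LAMP1 and LAMP2 are the abundant glycoproteins that line the lysosomal membrane, and both are given in full here after their values were seen. Lamp1 read 11.92, 12.03, 11.73 and 11.78 in wild-type hearts 1 to 4 and 11.58, 11.77, 11.70 and 11.52 in knockdown hearts 1 to 4. Only knockdown heart 2 reached into the wild-type range, and the difference was -0.22 ± 0.110 (interval -0.46 to 0.02; limma adjusted p = 0.290; exact permutation p = 0.0571). Lamp2 was read by 4 probes, all with positive differences that did not pass. The brightest Lamp2 probe and a dimmer one, which the platform annotation assigns to the same RefSeq transcript, gave 0.23 and 0.18 (limma adjusted p = 0.475 and 0.564). The other 2 Lamp2 probes, assigned to another RefSeq transcript, gave 0.05 and 0.44 (limma adjusted p = 0.849 and 0.0848). The last of these read 7.79, 7.44, 7.39 and 7.37 in wild-type and 8.18, 7.78, 7.77 and 8.01 in knockdown hearts. Wild-type heart 1 stood above the rest of its group and overlapped the knockdown range, and the 2 probes of this transcript gave the widest gap among the 4.

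The 4 tested lysosomal enzymes all overlapped between the groups. Gaa, the acid alpha-glucosidase that breaks down glycogen in the lysosome, ran from 8.05 to 8.73 in wild-type and from 8.41 to 8.83 in knockdown hearts (difference 0.23 ± 0.154, limma adjusted p = 0.439). Hexa, a subunit of the hexosaminidase that trims gangliosides, differed by 0.09, and Ctsa, a carboxypeptidase that protects other lysosomal enzymes, by -0.04 (limma adjusted p = 0.708 and 0.924). Ctsb, a cysteine protease, read 7.17, 7.47, 7.32 and 7.94 in wild-type and 7.66, 7.11, 7.11 and 7.10 in knockdown hearts. A high wild-type heart 4 and a high knockdown heart 1 gave it the widest interval of the lysosome genes (difference -0.23, interval -0.63 to 0.17; limma adjusted p = 0.529).

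Heart by heart, the 24 genes did not shift as a block. The median over the genes, set against the wild-type mean of each, lay between -0.09 and 0.04 in the 4 wild-type hearts and between 0.01 and 0.17 in the 4 knockdown hearts, so the ranges overlapped. For the 5 receptor genes it lay between -0.08 and 0.09 in the wild-type hearts and was 0.01, -0.22, -0.15 and -0.33 in knockdown hearts 1 to 4. Knockdown heart 1, the highest of its group for this median, was level with the wild-type hearts. For the 12 autophagosome genes it ran from -0.04 to 0.04 in the wild-type hearts and was 0.04, 0.23, 0.03 and 0.06 in knockdown hearts 1 to 4, so the ranges overlapped at their ends. For the lysosome genes it ran from -0.16 to 0.08 in wild-type and from -0.01 to 0.20 in knockdown hearts. The heat map of genes by heart shows Pink1 and Fundc1 lower and Sqstm1, Gabarap and Mcoln1 higher in each knockdown heart. The 4 knockdown hearts also lay on the same side of the wild-type mean for Lamp1 and Wipi1 (below) and for Uvrag, Pik3c3, Gabarapl1, Gaa and Atg7 (above), with overlapping groups, and on both sides of it in the other rows.

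**Figure D3:**
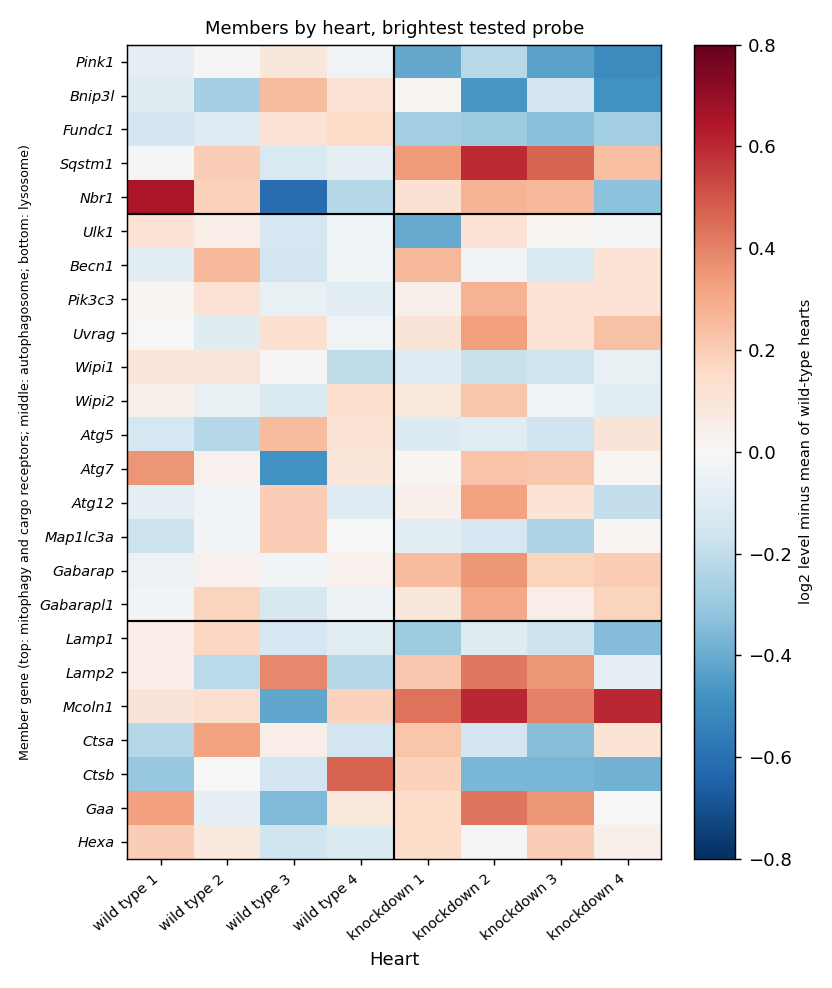
Level of each of the 24 tested genes (rows, by role) in each of the 8 hearts (columns), as log2 level minus the mean of the 4 wild-type hearts, blue below and red above it. The Pink1 and Fundc1 rows are blue and the Sqstm1, Gabarap and Mcoln1 rows red in all 4 knockdown hearts, while Nbr1 ranges widely among the wild-type hearts themselves.

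Of the 35 listed genes, 11 could not be compared. Park2 and Atg9a, the latter a membrane-spanning scramblase that supplies lipid to the growing autophagosome, had no probe. The probes of Bnip3, Atg4b, Map1lc3b, Gabarapl2, Ctsd and Ctsl were detected on 0 of 8 arrays. The Ulk2 probes were detected on 3 of 8 arrays each, and no probe of Atg3 or Tfeb on more than 2. The single probe of Ctsd, the main aspartic protease of lysosomes, had a deposited intensity of 10.95 ± 3.90 in wild-type and 4.89 ± 3.53 in knockdown hearts (SD, n = 4) and was detected on none of the 8 arrays. Such a probe says that its signal was not well above background and not that the transcript is absent. For TFEB, the transcription factor that drives lysosome genes, no change in its own transcript could thus be read.

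Genes of the same pathways outside the list gave few changes as well. Across 7 further lists, 138 of 198 genes were tested, 5 rose and 1 fell (3.22% and 3.43% of all genes), and their median difference was 0.05. The lists were chosen with earlier results of these data known, so these counts are not independent of those results. The lists of other mitophagy genes (19 tested of 28), lysosomal membrane proteins and transporters (20 of 28), and microautophagy and chaperone-mediated autophagy (4 of 7) held no gene that passed, with medians of -0.01, -0.04 and 0.12. At an unadjusted limma p under 0.05 these lists held 3, 3 and 0 genes, beside 21.3% of all genes.

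Among 29 tested of 39 other autophagosome genes Wdr45, a PI3P-binding relative of the WIPI proteins, rose by 0.57, from 6.24 ± 0.148 to 6.82 ± 0.142 (SD, n = 4; limma adjusted p = 0.0137). Among 15 tested of 17 subunits of the V-ATPase, the proton pump that acidifies the lysosome, Atp6v1h rose by 0.50, from 8.54 ± 0.0619 to 9.04 ± 0.215 (limma adjusted p = 0.0349), and the median of the pump was 0.10. Among 25 tested of 37 regulators, 3 rose (3.22% of all genes rose). They were the stress-response transcription factor Atf4, by 1.68 (limma adjusted p = 3.55e-05), and a pair of genes of the nutrient-sensing machinery on the lysosome. Rragc, a Rag GTPase that brings mTORC1 to the lysosome, rose by 0.40, from 8.60 ± 0.159 to 9.01 ± 0.0411 (limma adjusted p = 0.0483). Flcn, folliculin, which acts on RagC and RagD, rose by 0.49, from 8.01 ± 0.231 to 8.50 ± 0.112 (limma adjusted p = 0.0485).

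The calls of Atp6v1h, Rragc and Flcn lay close to the threshold, and each was lost when almost any single heart was left out. The limma adjusted p of Atp6v1h was 0.0565, 0.0808, 0.0747 and 0.0615 without wild-type heart 1, 2, 3 or 4 and 0.0723, 0.0853 and 0.0644 without knockdown heart 1, 2 or 4. That of Rragc was 0.0801, 0.119 and 0.119 without wild-type heart 2, 3 or 4 and 0.0855, 0.105, 0.0973 and 0.108 without knockdown heart 1, 2, 3 or 4. That of Flcn was 0.0958, 0.0958 and 0.117 without wild-type heart 1, 2 or 4 and 0.114, 0.0902, 0.116 and 0.0673 without knockdown heart 1, 2, 3 or 4. The calls of Wdr45 and Atf4 held in every fit that left out 1 heart, and that of Wdr45 was lost with wild-type hearts 3 and 4 only (0.55, limma adjusted p = 0.0528).

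**Figure D4:**
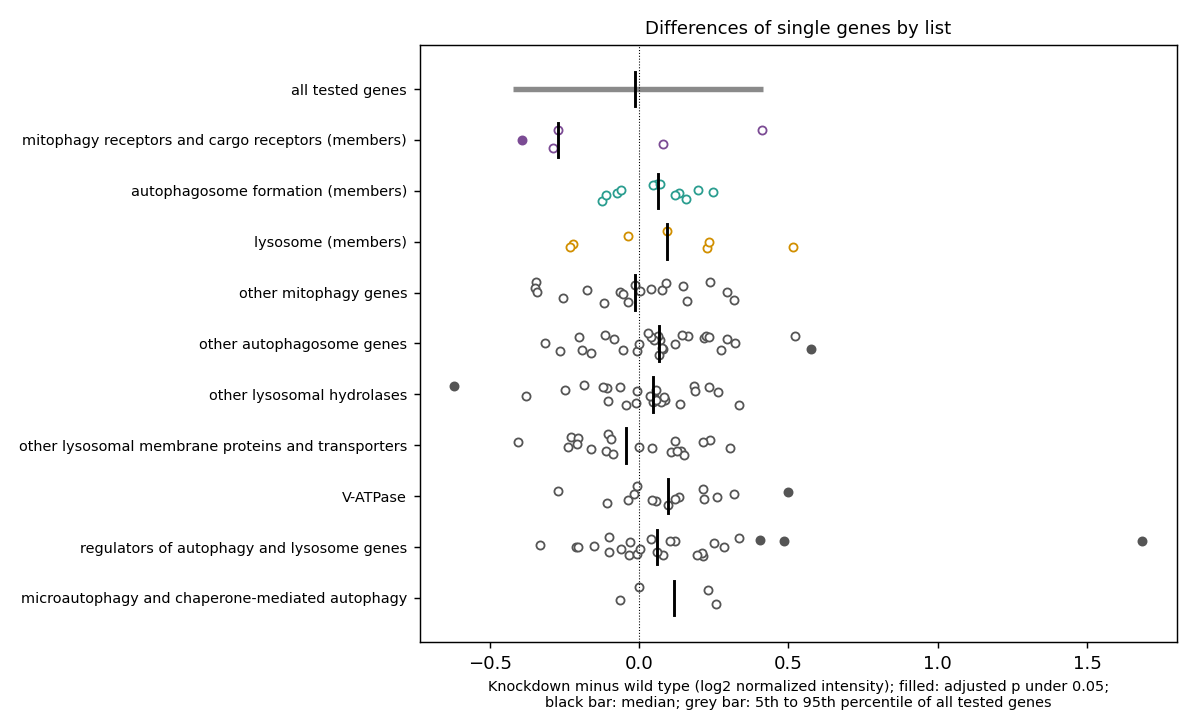
Difference between knockdown and wild-type hearts, in log2 normalised intensity, for each tested gene (1 probe a gene) of the 3 groups of listed genes and of the 7 further pathway lists, with the median of each list as a black bar and the 5th to 95th percentile of all tested genes in grey. Filled points passed the limma adjusted p of 0.05: Pink1 and Ctsc to the left of 0 and Wdr45, Atp6v1h, Rragc, Flcn and Atf4 to the right.

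Of the 26 tested lysosomal hydrolases outside the list (42 listed), 1 passed. Ctsc, cathepsin C, a dipeptidyl peptidase that activates the serine proteases of leukocyte granules, read 8.44, 8.49, 8.63 and 8.60 in wild-type and 8.02, 7.76, 7.95 and 7.95 in knockdown hearts. The groups did not overlap, and the level fell by 0.62 ± 0.103, a 1.54-fold lower intensity (limma adjusted p = 0.00474), with -0.66 for the second Ctsc probe (limma adjusted p = 0.00757). Of 16 leukocyte markers 8 were detected, all 8 with a negative difference (median -0.16). Lyz2, the lysozyme of macrophages and other myeloid cells, fell by 0.48 (limma adjusted p = 0.0450), and the other 7 did not pass, ranging from -0.27 for C1qb to -0.03 for C1qa. Their summed normalised intensity was 3181 to 3868 in wild-type and 2551 to 3106 in knockdown hearts. Cd68, Adgre1, Csf1r, Cd163, Itgam, Ptprc, Mpeg1 and Tyrobp were not well above background on enough arrays to be tested. Negative medians were not confined to leukocyte markers, with -0.15 for cardiomyocyte and -0.66 for atrial markers. Fibroblast markers, 5 detected of 8, had a median of -0.14, with 4 negative, 1 positive and 0 that passed. The median was 0.01 for endothelial markers (7 detected of 8) and 0.59 for erythroid genes. The part of leukocytes in the Ctsc value, and in the negative differences of Lamp1 and Ctsb, was not tested.

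How the listed genes stood against the threshold depended on the processing and on the hearts used for 3 of them. The alternatives counted here include fits with fewer hearts. Pink1 passed in 7 of 21 alternatives with a limma adjusted p between 0.00541 and 0.197. Among the fits that left out 1 heart it passed only without knockdown heart 2. Sqstm1 passed in 5 of 21 (0.00723 to 0.156) and Mcoln1 in 4 of the 15 in which it was tested (0.0181 to 0.105). The sign of each of these differences was the same under every alternative in which the gene was tested. Mcoln1 passed the detection filter through the knockdown arrays alone, so its counts and sign here follow in part from that filter. Fundc1 and Gabarap passed in none of 21 alternatives, their lowest limma adjusted p being 0.0649 and 0.0553.

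**Figure D5:**
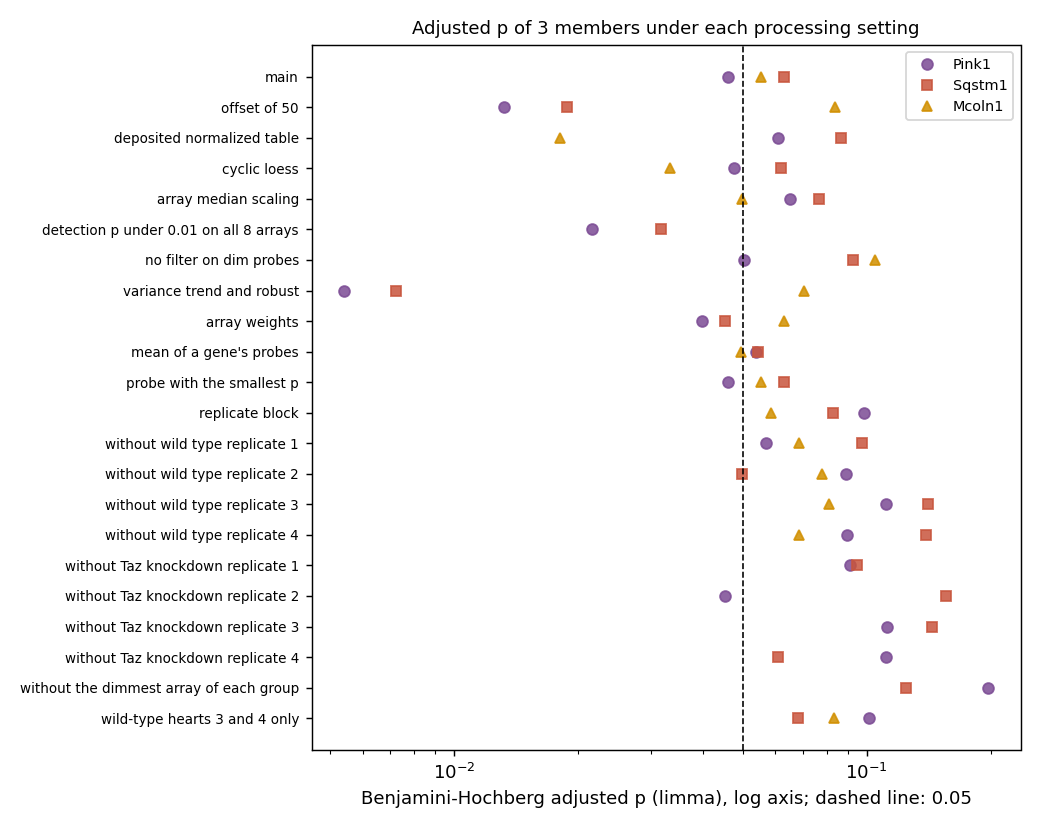
Benjamini-Hochberg adjusted p from limma (log axis) for Pink1, Sqstm1 and Mcoln1 with the processing as reported (top row) and under each alternative, the dashed line marking 0.05. Pink1 lies just left of the line in the top row, and all 3 genes fall on both sides of it over the alternatives, with Mcoln1 missing where too few arrays detected it.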

How the data were processed

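RNA of 8 hearts was hybridised to Illumina mouse bead arrays after Ambion amplification, per the labels' protocols. Per the file headers the first deposited table is non-normalized. It gives 1 intensity per probe and array, on a linear scale and with values below 0 from background subtraction. Beside each intensity the authors deposited a detection p-value. The scanner software is not given in the sources used here. The other deposited table, intensity values with the same quartiles on every array (quantile-normalised), served as an alternative.

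Intensities were corrected by normexp (background from the detection p-values, offset 16), quantile-normalised and put on the log2 scale (neqc, limma 3.58.1, R 4.3.3). The offset draws differences of dim probes toward 0. Groups and heart numbers came from the sample descriptions, and each array is a separate mouse. Probes detected at p under 0.05 on 4 or more arrays were tested two-sided with lmFit and eBayes, with Benjamini-Hochberg adjustment over 9397 probes and a threshold of 0.05. A gene is read by its brightest tested probe. Where a group was detected on no array, the fold is a bound against the lowest detected signal per array. The number of arrays limits the precision. Heart numbers do not pair the mice: deviations of same-numbered hearts from their group means correlated at 0.165, 0.00530, -0.0932 and -0.00531.

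Genes were named by the platform annotation, with symbols brought up to date from RefSeq through Entrez numbers (23962 of 23978 named probes; 1719 had no gene and 0 several), and the 292 list entries all matched a gene, 4 by synonym. Probe sequences were not used. Genes given in full are those with a called probe, an unadjusted p under 0.05 or probes over 0.5 apart, and, in other lists, up to 6 that passed. Heart values of Bnip3l, Ctsb, Lamp1 and Lamp2 were added after they were seen. The members, lists and tests were chosen with earlier results of these data known. Alternatives covered offset, normalisation, filter, variance model, weights, choice of probe, replicate block, single hearts and dim arrays. A comparison with wild-type hearts 3 and 4 only was added after seeing the data. In the sample titles the mouse numbers of these hearts directly precede those of the knockdown mice. The numbers of the other wild-type mice stand apart from them.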

Additional observations from a re-analysis of the deposited data

Results flagged for a closer look

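In 72 groups of 4 hearts, taken over the 36 tested probes of the listed genes, 3 held a heart far from the other 3 by Dixon's criterion of the gap to its neighbour over the range of the group. Chance gives about 1 in 20 such groups, so 3 of 72 is no more than chance gives. The values are log2 normalised intensity. The Lamp2 probe with the difference of 0.44 read 7.79 in wild-type heart 1, where the other wild-type hearts read 7.37 to 7.44. Mcoln1 read 4.56 in wild-type heart 3, a dim array, where the others read 5.08 to 5.16, none of them well above background. Without that heart its difference was 0.39 (limma adjusted p = 0.0809). Ctsb read 7.66 in knockdown heart 1, where the others read 7.10 to 7.11.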

How the results depend on the processing

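The limits are 4 hearts per group, 1 dim probe for Mcoln1 and 11 genes with no measurement. Of the 9397 probes 321 rose and 297 fell. The probes that fell numbered 451 with an offset of 50, 477 with a variance trend and robust prior, 145 with the dimmest array per group left out (where 170 rose) and 178 with wild-type hearts 3 and 4 only. With 1 heart left out 183 to 281 rose and 187 to 274 fell. The lowest counts came without knockdown heart 2 (183 and 194), knockdown heart 3 (202 and 191), wild-type heart 2 (196 fell) and wild-type heart 4 (187 fell). The replicate numbers were no pairing, and with the replicate block 184 probes fell, 0 listed genes passed (Pink1 limma adjusted p = 0.0986) and 2 other pathway genes rose.

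Listed genes that rose numbered 1 in place of 0 with an offset of 50, a strict detection filter, a variance trend or array weights (Sqstm1), and with the deposited normalised table, cyclic loess, median scaling or the mean of a gene's probes (Mcoln1). With 1 heart left out they numbered 0 to 1, as did those that fell. Those that fell numbered 0 in place of 1 with the deposited table (Pink1 adjusted p = 0.0610), median scaling (0.0652), no filter (0.0504), the mean of probes (0.0540), without the dimmest arrays (0.197) and with wild-type hearts 3 and 4 only (0.101).

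The median over listed genes was -0.0075 without the dimmest arrays and 0.00097 to 0.10 with 1 heart left out. That of the receptors was -0.13 with no filter, -0.12 without the dimmest arrays and -0.42 with wild-type hearts 3 and 4 only. That of the lysosome genes was -0.087 with no filter and -0.024 to 0.16 with 1 heart left out. The autophagosome median stayed between 0.02 and 0.13. Other pathway genes that rose numbered 3 with the deposited table, 2 with no filter, 8 with a variance trend, 3 without the dimmest arrays, 2 with wild-type hearts 3 and 4 only and 2 to 3 with 1 heart left out, in place of 5. Those that fell numbered 4 in place of 1 with an offset of 50, a strict filter or a variance trend.

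Signs turned for 9 genes, whose differences with the processing as reported ran from -0.11 (Map1lc3a) to 0.12 (Atg7). Atg5 was 0.026 by the mean of its probes and 0.11 by the probe with the smallest p, and Map1lc3a 0.16 and 0.44 by those choices. Without the dimmest arrays Atg7 was -0.0092 and Becn1 -0.0075, and with wild-type hearts 3 and 4 only Ulk1 was 0.011 and Ctsa 0.0092. With 1 heart left out Atg5 ran from -0.13 to 0.022 and Atg7 from -0.043 to 0.23 (turned without wild-type heart 3), as did Nbr1, from -0.12 to 0.30. Ulk1 ran from -0.14 to 0.037 and Becn1 from -0.0083 to 0.14 (turned without knockdown heart 1), and Wipi2 from -0.014 to 0.091 and Atg12 from -0.015 to 0.16 (turned without knockdown heart 2). Ctsa ran from -0.12 to 0.072, positive without wild-type heart 2 and without knockdown heart 2 or 3 (0.00097 and 0.063). The causes of these turns were not tested.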
